A study of Mus musculus with 8 samples.

Results

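Fgfr1, Fgfr2 and Fgfr3 encode receptor tyrosine kinases for fibroblast growth factors (FGFs), and each gene has a pair of alternative exons, IIIb and IIIc, that are used in place of one another. These 3 genes, of 21690 in the expression table, were taken by name, together with their 38 junction entries of 1203 in the authors' deposited MAJIQ splicing table. They were followed in RNA sequencing of mouse back-skin epidermis at postnatal day 5, from 4 Experimental and 4 Control libraries that the labels call biological replicates. Experimental mice carried K5rTA (a transactivator driven by the keratin 5 promoter, so active in basal keratinocytes), tetOCre, Esrp1flox/flox and Esrp2-/-. Control mice carried Esrp1flox/flox and Esrp2-/- with no transgene listed. In both groups the dams ate chow high in doxycycline from embryonic day 17. Esrp2 was thus missing by genotype from Experimental and Control mice alike. What differs between them is Esrp1 deletion by a doxycycline-driven Cre, and an effect of the transgenes themselves cannot be told apart from it.

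The extracellular part of an FGF receptor ends in the third of its immunoglobulin-like domains. Exon IIIa encodes the first part of that domain, and exon IIIb or exon IIIc encodes the rest, which contacts the ligand. Epithelial cells typically make the IIIb form, which in the case of Fgfr2 binds FGF7, FGF10 and FGF22, while mesenchymal cells typically make the IIIc form, which binds a different set of FGFs. ESRP1 and ESRP2 are epithelial RNA-binding proteins known for promoting exon IIIb of Fgfr2, and they bind RNA rich in UGG and GGU.

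Of the exons that the junctions join, the IIIb exon of Fgfr2 and both exons of Fgfr3 are shown, because the whole switch is a choice between such exons. Coordinates are GRCm38, exon boundaries are those of GENCODE M21, and the 6 capital bases at each end are those brought next to the neighbouring exons by splicing. Fgfr2 lies on the minus strand, with IIIb at chr7:130199758-130199905. Fgfr3 lies on the plus strand, as Fgfr1 does, with IIIb at chr5:33731281-33731431 and IIIc at chr5:33732117-33732261.
Fgfr2 exon IIIb: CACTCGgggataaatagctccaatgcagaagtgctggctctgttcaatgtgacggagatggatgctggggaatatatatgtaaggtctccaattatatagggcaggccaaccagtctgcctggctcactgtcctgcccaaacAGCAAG
Fgfr3 exon IIIb: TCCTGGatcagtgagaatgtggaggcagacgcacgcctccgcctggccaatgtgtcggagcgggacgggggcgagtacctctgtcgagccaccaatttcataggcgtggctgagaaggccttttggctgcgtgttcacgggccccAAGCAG
Fgfr3 exon IIIc: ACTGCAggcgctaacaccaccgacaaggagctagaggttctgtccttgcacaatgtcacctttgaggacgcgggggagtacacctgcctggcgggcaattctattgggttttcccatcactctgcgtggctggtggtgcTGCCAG

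The IIIc exon was 145 bases long in all 3 genes. The IIIb exon was 148 bases long in Fgfr2 and 151 bases in Fgfr1 and in Fgfr3. Each of the 6 lengths leaves a remainder of 1 when divided by 3, so either exon keeps the same reading frame in what follows, and neither including both nor skipping both does. In a global alignment the IIIb exons of Fgfr2 and Fgfr3 shared 54.8% of their bases. The IIIb exon of Fgfr2 shared 55.5% with the IIIc exon of Fgfr3, and the IIIb and IIIc exons of Fgfr3 shared 50.6%, so among these 3 exons identity did not follow exon type.

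The intron between IIIb and IIIc is the stretch in which ESRP binding is best known for Fgfr2. The last 300 bases of it before exon IIIc could be read for Fgfr1 (chr8:25564040-25564339) and Fgfr3 (chr5:33731817-33732116) from annotated transcripts that retain the intron. The Fgfr2 intron was not analysed here. Capitals mark TGGTGG, written as DNA, a hexamer built from the UGG and GGU units, searched on the transcript strand only and with overlapping matches allowed.
Fgfr1 last 300 bases before exon IIIc: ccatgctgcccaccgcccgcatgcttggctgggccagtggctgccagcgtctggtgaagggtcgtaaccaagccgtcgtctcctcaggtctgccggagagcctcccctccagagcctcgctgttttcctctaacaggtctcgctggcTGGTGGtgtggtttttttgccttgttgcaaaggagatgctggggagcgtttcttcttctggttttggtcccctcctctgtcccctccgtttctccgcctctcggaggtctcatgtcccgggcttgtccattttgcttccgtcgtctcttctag
Fgfr3 last 300 bases before exon IIIc: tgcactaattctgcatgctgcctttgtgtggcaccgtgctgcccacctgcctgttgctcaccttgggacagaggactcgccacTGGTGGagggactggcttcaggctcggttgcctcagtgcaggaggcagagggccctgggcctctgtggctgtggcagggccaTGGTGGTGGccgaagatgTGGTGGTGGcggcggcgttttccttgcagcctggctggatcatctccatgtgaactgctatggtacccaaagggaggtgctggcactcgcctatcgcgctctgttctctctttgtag

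The Fgfr3 window held 5 matches to TGGTGG and the Fgfr1 window held 1. Of 5016 windows of the same length before exons, read in the same way from introns retained in some annotated transcript, 13.0% held at least 1 match and 0.0598% (3 windows) held at least 5. TGCATG, the element bound by RBFOX proteins, which are known to act on the same exon choice in Fgfr2, occurred once in the Fgfr3 window and not in that of Fgfr1, and 10.9% of the 5016 windows held it. The hexamer was chosen from general knowledge of ESRP binding and with the size of these splicing changes known, so the counts are a description of these letters.

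Libraries first had to be set against their labels. Esrp1 transcript stood at 65.0, 49.8, 75.6 and 66.5 TPM (a share of all transcripts, corrected for length) in Experimental libraries 1 to 4, against 135, 131, 133 and 162 TPM in Control libraries 1 to 4. Every Experimental library was below every Control library (log2 change -1.13, SE 0.17, limma adjusted p = 0.0112). In the authors' deposited table, a junction within Esrp1 that is absent from the annotation, chr4:11361255-11366908, had a PSI of 0.828 in Experimental and 0.001 in Control epidermis. Esrp2, lacking by genotype in both groups, was still listed at 4.98, 3.25, 5.28 and 4.22 TPM in Experimental libraries, against 3.07, 0, 2.14 and 3.31 TPM in Control libraries, with overlapping values and a limma adjusted p of 0.176. An expression value of 0 stands for 1 TPM or less, and sequencing depth is unknown because TPM does not keep it. Experimental libraries 2 and 4 stood apart in the share of TPM from mitochondrial genes, 18.2% and 17.5%, against 10.6% to 12.6% in the other 6 libraries. Control libraries stood apart from one another in basal keratinocyte markers (Krt5, Krt14, Krt15, Trp63, Col17a1, Itgb4 and Itga3), whose summed level was 8000, 6830, 2810 and 914 TPM in Control libraries 1 to 4 and lay between 1730 and 2980 TPM in Experimental libraries.

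The exon choice of all 3 receptors differed between the groups in the same direction. Between the junctions from exon IIIa to IIIb and to IIIc, Experimental epidermis used mainly that to IIIc and Control epidermis mainly that to IIIb. For Fgfr2 and Fgfr3, part of the splicing from IIIa went by neither junction. PSI, percent spliced in, is here a fraction from 0 to 1: the part of the splicing at a named splice site that goes by a given junction. MAJIQ combined the 4 libraries of each group, so the PSI values below, all from the authors' deposited table, carry no library spread, SD or n. The table gives instead a posterior probability that the absolute difference in PSI is at least 0.15. The 38 entries of the 3 genes came down to 21 distinct values (4 for Fgfr1, 9 for Fgfr2 and 8 for Fgfr3) once repeats of a junction at the same site, and 1 entry without a value, were set aside. For 20 of the 21 the posterior probability was given as 1.0. Over all genes, 94% of 848 distinct entries had an absolute difference of at least 0.15, and 76.9% had it with a posterior probability of at least 0.95, so passing this threshold did not set the receptors apart from other genes listed.

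Fgfr2 (ENSMUSG00000030849.18), whose IIIb form is the keratinocyte growth factor receptor, showed the most complete exchange of these genes at the IIIa donor. In the authors' deposited table the junction from IIIa to IIIb (chr7:130199905-130200983) had a PSI at the IIIa donor of 0.049 in Experimental and 0.740 in Control epidermis, a difference of -0.710. The junction from IIIa to IIIc (chr7:130198563-130200983) had 0.633 in Experimental and 0.004 in Control epidermis, a difference of 0.629. The IIIc share of the 2 junctions together was therefore 92.8% in Experimental and 0.538% in Control epidermis. A remainder of 0.318 in Experimental and 0.256 in Control epidermis belonged to routes out of the IIIa donor that the table does not list under these events.

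The far side of the Fgfr2 exons, where they join the exon that follows (chr7:130196172-130196374), gave the same order from a different set of reads. At the acceptor of that exon, the authors' deposited table gives the junction from IIIb a PSI of 0.085 in Experimental and 0.830 in Control epidermis, a difference of -0.764. The junction from IIIc had 0.588 in Experimental and 0.010 in Control epidermis, a difference of 0.577. IIIc thus took 87.4% of both in Experimental and 1.19% in Control epidermis. Reads running into the intron after IIIc had a PSI of 0.323 in Experimental and 0.158 in Control epidermis, and this was the 1 of the 21 values with a posterior probability below 1.0, at 0.581.

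The intron between Fgfr2 exons IIIb and IIIc moved in opposite directions according to the exon from which it was measured. At the donor of IIIb, where the alternatives are splicing onward or running into the intron, the authors' deposited table lists the intron at 0.814 in Experimental and 0.159 in Control epidermis. At the acceptor of IIIc, where the alternatives are the junction from IIIa or entry from the intron, it lists the same intron at 0.417 in Experimental and 0.984 in Control epidermis. A PSI is a share at 1 site, so the spliced IIIb junction (0.186 in Experimental and 0.841 in Control epidermis) and the spliced IIIc junction (0.583 in Experimental and 0.016 in Control epidermis) are the complements of these intron values. They do not give an amount of intron RNA, and such an amount cannot be had from this table.

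Fgfr3 (ENSMUSG00000054252.18), a receptor of keratinocytes whose IIIb form is the usual one in epithelia, also exchanged its exons. In the authors' deposited table the junction from IIIa to IIIb (chr5:33730334-33731281) had a PSI of 0.098 in Experimental and 0.589 in Control epidermis, a difference of -0.506. The junction from IIIa to IIIc (chr5:33730334-33732117) had 0.385 in Experimental and 0.006 in Control epidermis, a difference of 0.367. The IIIc share of these 2 junctions was 79.7% in Experimental and 1.01% in Control epidermis. The events listed left 0.517 of the IIIa donor in Experimental and 0.405 in Control epidermis unaccounted for, the largest remainder among the sites read here.

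On the far side of the Fgfr3 exons the IIIc share was higher in both groups. At the acceptor of the next exon (chr5:33732722-33732912), the authors' deposited table gives the junction from IIIb 0.040 in Experimental and 0.572 in Control epidermis, and the junction from IIIc 0.658 in Experimental and 0.092 in Control epidermis. IIIc took 94.3% of both in Experimental and 13.9% in Control epidermis at that acceptor, against 79.7% and 1.01% at the IIIa donor. The intron between IIIb and IIIc was listed at the IIIb donor at 0.754 in Experimental and 0.377 in Control epidermis, and at the IIIc acceptor at 0.508 in Experimental and 0.840 in Control epidermis. As in Fgfr2, its sign depended on the exon of reference.

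Fgfr1 (ENSMUSG00000031565.18), the receptor best known for its IIIc form in mesenchyme, was read from the IIIa donor and the IIIc acceptor. In the authors' deposited table its junction from IIIa to IIIb (chr8:25562328-25563374) had a PSI of 0.166 in Experimental and 0.797 in Control epidermis, and its junction from IIIa to IIIc (chr8:25562328-25564340) had 0.834 in Experimental and 0.203 in Control epidermis. These 2 junctions took the whole of the IIIa donor, so the IIIc share was 83.4% in Experimental and 20.3% in Control epidermis. Among the 3 genes Fgfr1 had the highest IIIc share in Control epidermis at this donor, 20.3% against 0.538% for Fgfr2 and 1.01% for Fgfr3. The Fgfr1 intron in the table starts at 25563715 and not at the end of exon IIIb, because 1 annotated transcript has a longer exon of 341 bases there. That exon and IIIb both start at 25563374, so the junction from IIIa does not tell them apart. The part of the longer exon in the IIIb value was not tested. At the IIIc acceptor the intron was listed at 0.387 in Experimental and 0.860 in Control epidermis. The table classes this gene under alternative 3' splice sites and not as mutually exclusive exons, and no entry at the following exon was listed for it.

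**Figure D1:**
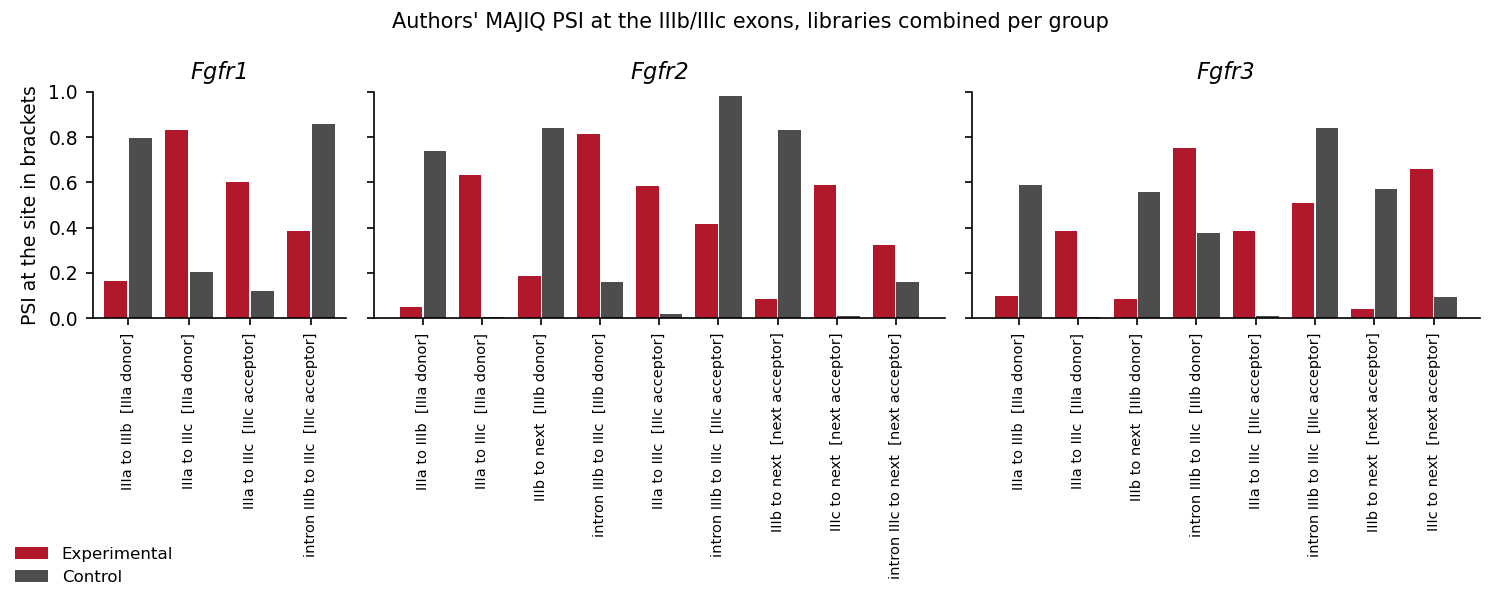
PSI, as a fraction from 0 to 1, of each distinct entry of Fgfr1, Fgfr2 and Fgfr3 in the authors' deposited MAJIQ table, at the splice site named in brackets, in Experimental (red) and Control (grey) epidermis. Each bar is 1 value for the 4 combined libraries of a group and has no error. All spliced junctions that use IIIb are lower and all that use IIIc are higher in Experimental epidermis. Intron entries go in either direction, depending on the splice site.

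Genes were also ordered by their largest absolute difference in PSI, to place the receptors among the 236 genes of the table. Fgfr2 stood at rank 19 (0.764), Fgfr1 at rank 33 (0.651) and Fgfr3 at rank 37 (0.587, tied with Ralgps2). Over all 236 genes, 59 (25.0%) had a largest difference of at least 0.5, and the 3 receptors were among them. Directly above Fgfr2 stood Zdhhc6 (0.785) and Cd44 (0.775), a cell adhesion gene with variable exons, and directly below it Tmem147os (0.756). Fgfr1 lay below Nf2 (0.671) and Dennd1b (0.670) and above Ly6g6c (0.614) and Epb41 (0.604). Fgfr3 lay below Taf4b (0.604) and above Usp4 (0.584) and Cyb561a3 (0.582).

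**Figure D2:**
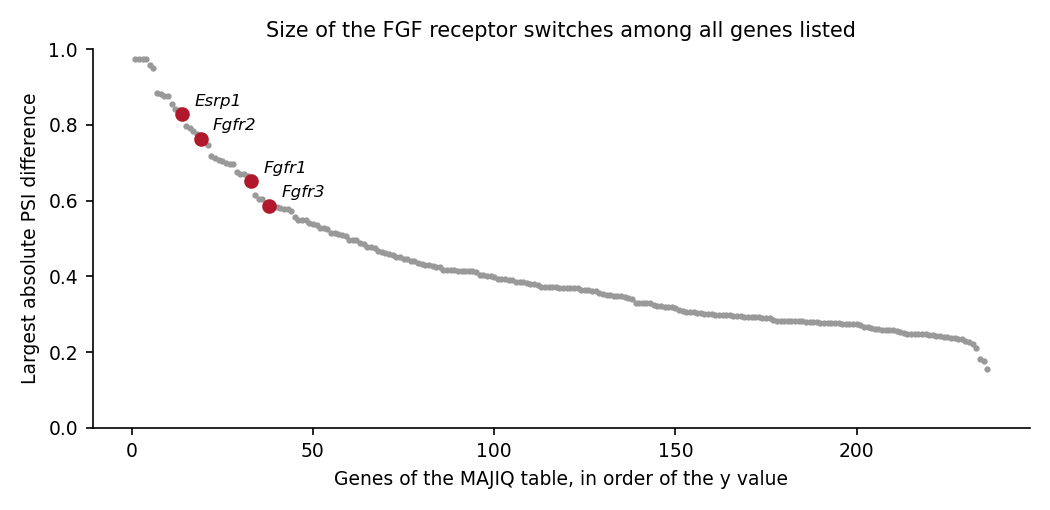
Largest absolute PSI difference of each of the 236 genes in the authors' deposited MAJIQ table (y axis), with genes in descending order (x axis); Fgfr1, Fgfr2, Fgfr3 and the deleted gene Esrp1 are in red. The receptors lie at 0.764 (Fgfr2), 0.651 (Fgfr1) and 0.587 (Fgfr3), in the upper part of the curve but below its top.

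Mutually exclusive exons were listed for 4 genes in the table, Fgfr2, Fgfr3, Tmem87b and Far1. The largest absolute difference in PSI among the junctions of such events was 0.764 in Fgfr2, 0.587 in Fgfr3, 0.413 in Far1 and 0.293 in Tmem87b. In Control epidermis the less used exon of Fgfr2 and of Fgfr3 had a PSI of at most 0.092 (at the following exon of Fgfr3). The less used exon of Tmem87b was also low in Control epidermis, at 0.064 at its upstream donor and 0.054 at the following exon, while that of Far1 (an enzyme of fatty alcohol synthesis) had 0.461 at its upstream donor.

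Transcript levels of the 3 receptors were compared next, to see how far the change of form came with a change of amount. None of the 3 reached an adjusted p below 0.05 in limma, the threshold used throughout, and the values of the groups overlapped for each. In all, 263 of 10682 genes tested passed (2.46%), 98 higher (0.917%) and 165 lower (1.54%), and 1350 (12.6%) had groups that did not overlap. The median log2 change over all genes was -0.18, and 74.5% of genes lay below 0, so a lower value in Experimental libraries was common. Centring each library on its median moved that median to 0.03 and the calls to 283 higher and 102 lower. Fewer cells of a type and less RNA per cell cannot be told apart in such bulk samples.

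Fgfr2 was listed at 11.5, 17, 23.5 and 14.4 TPM in Experimental libraries 1 to 4, against 52.3, 32.9, 24.0 and 11 TPM in Control libraries 1 to 4. Control libraries 1 and 2 lay above all others, and Control library 4 lay below all Experimental libraries. The means were 16.6 ± 5.09 TPM in Experimental and 30.0 ± 17.4 TPM in Control libraries (SD, n = 4 each). The log2 change was -0.67 (SE 0.40, 95% interval -1.56 to 0.23, limma adjusted p = 0.427; two-sided exact permutation p = 0.257). The interval thus holds both no difference and a level lower by more than 1 on the log2 scale. The value turned on the Control libraries: without Control libraries 1 and 2 it was -0.02 (limma adjusted p = 0.981), without Control libraries 3 and 4 it was -1.31 (limma adjusted p = 0.0163), without Control library 1 alone it was -0.34 (limma adjusted p = 0.749), and without Control library 4 alone it was -1.06 (limma adjusted p = 0.0578).

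Fgfr3 was listed at 11.7, 11, 19.9 and 19.3 TPM in Experimental libraries, against 26.4, 22.8, 25.3 and 13.6 TPM in Control libraries. Control libraries 1 to 3 lay above every Experimental library, and Control library 4 lay within their range. The means were 15.5 ± 4.80 TPM in Experimental and 22.0 ± 5.83 TPM in Control libraries (SD, n = 4 each). The log2 change was -0.49 (SE 0.27, 95% interval -1.08 to 0.11, limma adjusted p = 0.389; two-sided exact permutation p = 0.171). After median centring it was -0.27 for Fgfr3 and -0.45 for Fgfr2, with neither passing (limma adjusted p = 0.517 and 0.559).

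Fgfr1 was close to the floor of the table, listed at 2.86, 0, 1.56 and 1.20 TPM in Experimental libraries, against 4.23, 2.32, 1.66 and 1.45 TPM in Control libraries. The groups overlapped: Control library 1 held the highest value and Experimental library 1 the next highest. The log2 change, with the listed 0 set to 1 TPM, was -0.35 (SE 0.28, 95% interval -0.96 to 0.27, limma adjusted p = 0.549), and without Control libraries 1 and 2 it was 0.01. Its PSI values above therefore come from a gene of a few TPM. In TPM, which allows levels to be compared between genes, Fgfr1 was below Fgfr2 and Fgfr3 in each of the 8 libraries, while Fgfr2 and Fgfr3 overlapped each other, with ranges of 11 to 52.3 and 11 to 26.4 TPM.

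**Figure D3:**
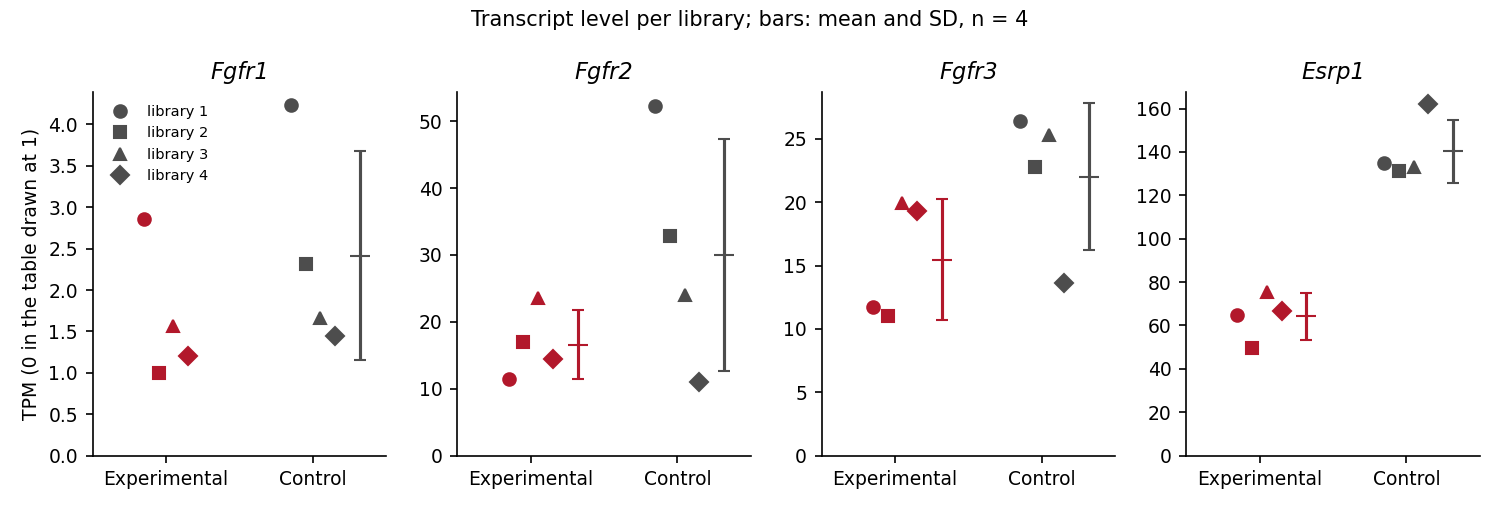
Level in TPM (y axis, linear, separate scale per gene) of Fgfr1, Fgfr2, Fgfr3 and the deleted gene Esrp1 in each Experimental (red) and Control (grey) library; bars give mean and SD (n = 4), drawn only where no library of the group is listed at 0, and a listed 0 is drawn at 1 TPM. The groups overlap for the 3 receptors and do not for Esrp1, at 49.8 to 75.6 TPM in Experimental and 131 to 162 TPM in Control libraries.

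The order of the Control libraries in Fgfr2 was also their order in basal keratinocyte markers, 8000, 6830, 2810 and 914 TPM in sum. Cell cycle genes had that Control order too (361, 233, 88.9 and 41.5 TPM in sum), so it was not particular to basal markers. In Experimental libraries 1 to 4 the basal markers summed to 2130, 1730, 2980 and 2000 TPM. That was not the order of Fgfr2 (11.5, 17, 23.5 and 14.4 TPM). Fgfr2 and Fgfr3 are both known in basal keratinocytes. Of the 7 basal markers in the table, 1, Krt15, passed the limma test (lower, log2 change -2.82, SE 0.59, adjusted p = 0.0361), and all 7 had log2 changes below 0, with a median of -0.56. For comparison, 1.54% of all genes tested passed as lower. Krt15, a keratin of basal cells and hair follicle stem cells, was at 48.9 to 170 TPM in Experimental libraries, against 184 to 1320 TPM in Control libraries. The 8 suprabasal keratinocyte markers summed to 75600 to 110000 TPM in Experimental libraries, above the 63300 to 72700 TPM in Control libraries, but 0 of the 8 passed the limma test (5 log2 changes above 0, median 0.24). Every Experimental library was above every Control library in 2 of them, Krt1 (log2 change 0.78, adjusted p = 0.247) and Ivl, an envelope protein of upper layers (0.79, adjusted p = 0.0650). That pattern held in 2.70% of all genes tested. The part of basal and suprabasal cell content in the receptor levels was not tested.

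**Figure D4:**
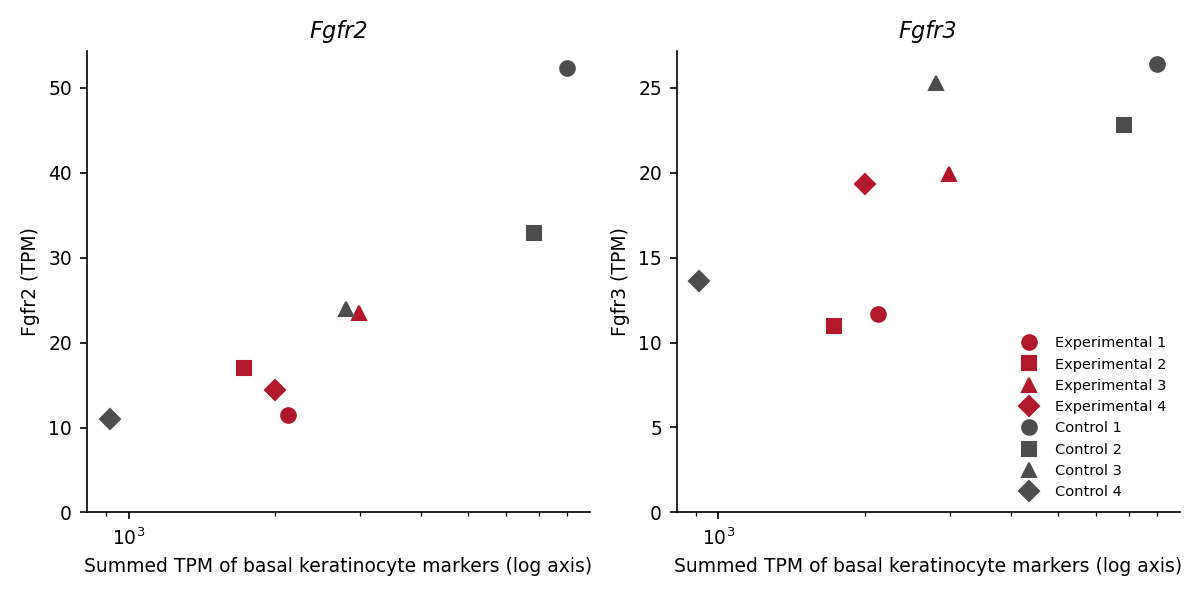
Level of Fgfr2 (left) and Fgfr3 (right) in TPM (y axis, linear) against the summed TPM of 7 basal keratinocyte markers (x axis, log scale) in the 4 Experimental (red) and 4 Control (grey) libraries. Control libraries spread from 914 to 8000 TPM of markers and from 11 to 52.3 TPM of Fgfr2, and Experimental libraries lie between, at 1730 to 2980 TPM of markers.

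Exon IIIc is the form of mesenchymal cells, so markers of dermis are given beside the switch. Of 15 dermal and mesenchymal markers in the table, 7 were at 0 in all 8 libraries, among them Pdgfra and Twist1, and 11 were at 0 in all Experimental libraries. Those at 0 in all Experimental libraries included the fibroblast collagens Col1a1, Col1a2 and Col3a1, which reached at most 1.82 TPM in Control libraries. Other members of the list were present. Dcn was at 2.94, 3.29, 1.06 and 0 TPM in Experimental libraries, against 24.7, 4.17, 1.1 and 0 TPM in Control libraries. Thy1 was above the floor in every library but Control library 4. The part of dermal cells in the PSI values was not tested. The summed level of the list was 38.3 to 65.5 TPM in Experimental and 22.3 to 124 TPM in Control libraries, most of it Vim, and 0 of 4 tested members passed in either direction. All 6 endothelial markers were at 0 in every library. Melanocyte markers summed to 34.9 to 81.7 TPM in Experimental and 59.0 to 149 TPM in Control libraries, and immune cell markers to 209 to 427 TPM in Experimental and 143 to 606 TPM in Control libraries, with none of their tested members passing. Hair follicle markers summed to 3020 to 13200 TPM in Experimental and 8610 to 45100 TPM in Control libraries; 0 of 15 tested members passed, but all 15 had log2 changes below 0, with a median of -1.65. Sebaceous gland markers summed to 85.3 to 146 TPM in Experimental and 197 to 509 TPM in Control libraries, which did not overlap. All 9 had log2 changes below 0, with a median of -1.33, and 2 passed: Elovl3, a fatty acid elongase (-1.99, adjusted p = 0.0116), and Plin2, a lipid droplet protein (-1.41, adjusted p = 0.0498). Of all genes tested, 1.54% passed as lower. The part of these last 2 structures in the PSI and level values was not tested.

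The remaining members of the family were at or near the floor. Fgfr4, a receptor without the IIIb and IIIc choice, was at 0 in all 8 libraries. Fgfrl1, a receptor that lacks the kinase domain, was at 0 in all 4 Experimental libraries, against 1.11, 1.96, 2.32 and 1.60 TPM in Control libraries. Its groups did not overlap, but its mean was too low for the limma test; the authors' deposited table lists it with a log2 fold change of -1.66 (standard error 0.39, adjusted p = 0.000777). The direction of that table was read from Esrp1, which has a fold change below 0 in it. The table holds 748 genes, all with a fold change below 0 and an adjusted p of at most 0.0499, and none of Fgfr1, Fgfr2 and Fgfr3 is among them. Only genes past a threshold are thus listed, whether others were left out is not known, and nothing is read from the receptors' absence.

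Ligands that bind IIIb forms were represented in epidermis by Fgf22, Fgf1 and Fgf3, and 0 of these 3 passed the limma test. Fgf22, a keratinocyte ligand of the Fgfr2 IIIb form, was at 47.2, 30.1, 52.9 and 38.6 TPM in Experimental libraries, against 61.5, 75.5, 108 and 211 TPM in Control libraries. Every Experimental library was below every Control library, as in 9.94% of all genes tested (log2 change -1.28, SE 0.35, limma adjusted p = 0.0933); the authors' deposited table lists Fgf22 with a log2 fold change of -1.37 (standard error 0.48, adjusted p = 0.0498). In limma it passed without Control library 1 (-1.51, adjusted p = 0.0453), with Control libraries 1 and 2 both left out (-1.85, adjusted p = 0.0183) and with library weights, where the change was smaller (-0.70, adjusted p = 0.00868). It was also smaller, and did not pass, without Control libraries 3 and 4 (-0.71, adjusted p = 0.0541) and without Control library 4 alone (-0.93, adjusted p = 0.0525).

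Fgf1, which binds both forms of every receptor, was at 8.75, 5.19, 8.62 and 12.2 TPM in Experimental libraries, against 2.77, 2.55, 3.41 and 7.53 TPM in Control libraries. The groups overlapped through Control library 4 (log2 change 0.98, SE 0.31, limma adjusted p = 0.146), and without that library the change passed (1.26, adjusted p = 0.0195). Fgf7 and Fgf10, the fibroblast ligands of the Fgfr2 IIIb form, were at 0 in all 8 libraries. Of 10 ligands that bind IIIc forms, 8 were at 0 in every library and none reached the mean for testing. The 2 others were Fgf5, at 2.50 TPM in Control library 4 only, and Fgf18, at 1.69 TPM in Experimental library 4 and at 1.27 and 1.25 TPM in Control libraries 2 and 3. Among the 7 endocrine and intracellular FGFs 1 was tested, Fgf11, with a log2 change of 0.20 (limma adjusted p = 0.613).

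Of 18 tested co-receptors, binding proteins and heparan sulphate genes, 0 passed, with a median log2 change of -0.21 beside -0.18 for all genes. Fgfbp1, a secreted carrier that releases FGFs from the matrix, was at 366, 294, 356 and 398 TPM in Experimental libraries, against 281, 261, 174 and 165 TPM in Control libraries. Every Experimental library was above every Control library, as in 2.70% of all genes tested (log2 change 0.71, SE 0.22, limma adjusted p = 0.125), and after median centring the change passed (0.92, adjusted p = 0.0106). Sdc2, a heparan sulphate proteoglycan, was at 1.73, 1.36, 2.19 and 2.22 TPM in Experimental libraries, against 3.69, 3.54, 2.76 and 3.60 TPM in Control libraries (log2 change -0.62, SE 0.17, limma adjusted p = 0.0851); the authors' deposited table lists it at -0.69 (standard error 0.20, adjusted p = 0.00914). Gpc1 and Sulf2 were the other members of the list without overlap, both lower, with limma adjusted p of 0.146 and 0.237. With Sdc2, 3 of the 18 tested members had every Experimental library below every Control library, a pattern held by 9.94% of all genes tested. The klotho co-receptors Kl and Klb were at 0 in every library.

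In the relay that carries the signal from the receptor to ERK and PI3 kinase, 1 of 25 tested genes passed, the docking protein gene Gab1, and it fell. Of all genes tested, 1.54% passed as lower. Gab1 was at 9.28, 5.52, 8.58 and 8.51 TPM in Experimental libraries, against 15.4, 15.3, 16.6 and 17.7 TPM in Control libraries. The groups lay well apart, with means of 7.97 ± 1.67 TPM in Experimental and 16.2 ± 1.14 TPM in Control libraries (SD, n = 4 each). In limma the log2 change was -0.96 (SE 0.18, adjusted p = 0.0257), and the authors' deposited table lists -0.87 (standard error 0.23, adjusted p = 0.00467). The log2 change stayed between -1.03 and -0.81 with any 1 library left out, but the adjusted p in limma was above 0.05 without Experimental library 1 (0.0507), 3 (0.0781) or 4 (0.0672) and without Control library 2 (0.0723) or 3 (0.0872). Frs2, the adaptor that binds FGF receptors directly, was at 3.65 to 6.01 TPM in Experimental and 5.58 to 7.13 TPM in Control libraries (log2 change -0.23, limma adjusted p = 0.552). The list's median log2 change was -0.27.

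Genes that report on or restrain FGF signalling gave no call in either direction. Of 12 tested feedback inhibitors and ERK targets 0 passed, with a median log2 change of -0.25, 4 above 0 and 8 below 0. The lowest p-values were those of Spred1 (log2 change -0.39, limma adjusted p = 0.379) and Spred2 (-0.51, limma adjusted p = 0.443), inhibitors of RAS to RAF signalling. Dusp6, the ERK phosphatase often read as a gauge of FGF signalling, was at 12.1, 4.75, 4.96 and 6.77 TPM in Experimental libraries, against 12.3, 11, 8.40 and 5.60 TPM in Control libraries, with full overlap. Spry1 was at 17.8 to 32.8 TPM in Experimental and 17.4 to 34.1 TPM in Control libraries, and Spry2 at 4.85 to 6.35 TPM in Experimental and 4.15 to 7.35 TPM in Control libraries. Etv5 and Spry4 were at or below 1.70 TPM in every library. These levels do not measure receptor activity.

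Tight junction genes, which include claudins of the epidermal barrier, gave 0 of 8 tested members past the threshold, with a median log2 change of -0.33. Cldn4 was at 356, 139, 302 and 225 TPM in Experimental libraries, against 226, 311, 414 and 876 TPM in Control libraries (log2 change -0.73, limma adjusted p = 0.403). Cldn3 was at 44.7, 2.15, 8.42 and 5.31 TPM in Experimental libraries, against 11.4, 24.1, 17 and 37.1 TPM in Control libraries, so Experimental library 1 held the highest value of all 8 (log2 change -1.16, limma adjusted p = 0.422).

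Among 17 tested regulators known to act on Fgfr2 splicing, the deleted gene Esrp1 was the 1 that passed, beside 2.46% of all genes tested. The median log2 change of the list was -0.33. Rbfox2, which promotes skipping of IIIb in mesenchymal cells, was at 3.17 to 4.96 TPM in Experimental and 4.78 to 6.46 TPM in Control libraries (log2 change -0.28, limma adjusted p = 0.458). Ptbp1, which represses IIIb, was at 33.0 to 44.8 TPM in Experimental and 25.1 to 82.7 TPM in Control libraries (log2 change -0.23, limma adjusted p = 0.760), and Hnrnpm had a log2 change of -0.37 (limma adjusted p = 0.507). Rbfox1 and Rbfox3 were at 0 in every library. Over all 9 lists, 87 of 127 genes were tested, 0 were higher and 2 (Gab1 and the deleted gene Esrp1) lower, with a median log2 change of -0.28. The share that passed among all genes tested was 2.46%, so this count did not set the lists apart. Under median centring 5 genes of the lists passed, which were Esrp1, Gab1, Fgfbp1, Flrt2 and Nras.

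**Figure D5:**
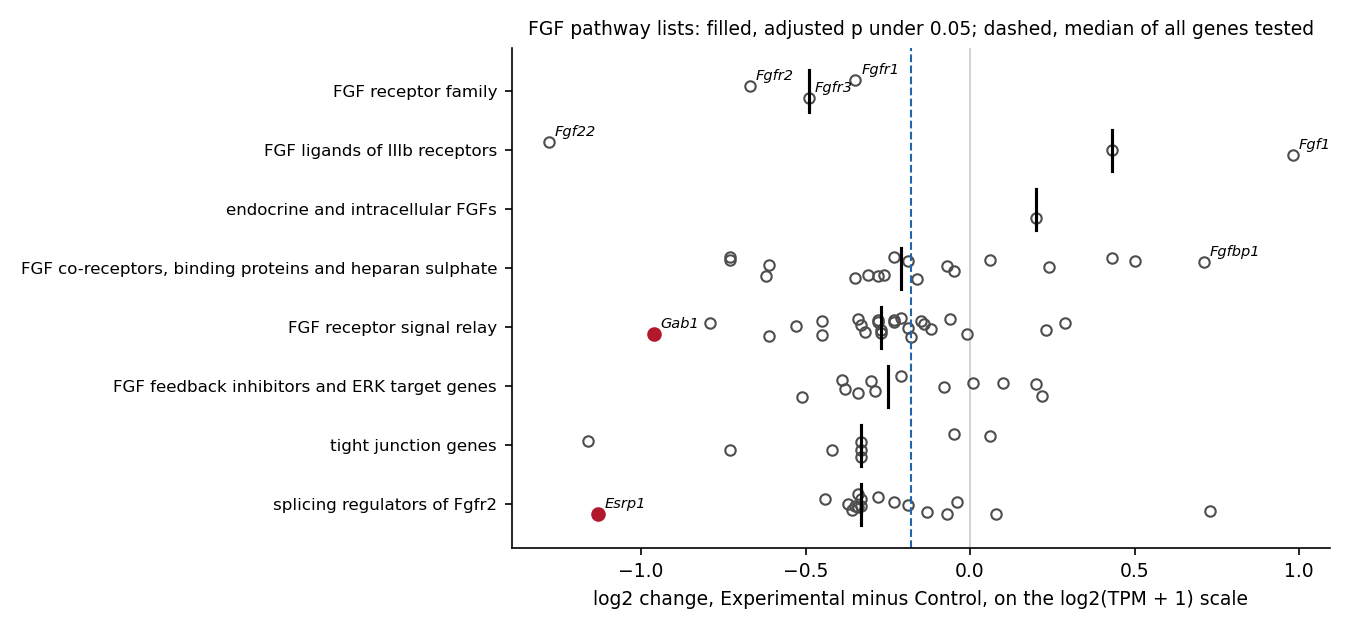
Log2 change, Experimental minus Control on the log2(TPM + 1) scale (x axis), of each tested gene in 8 FGF pathway lists (rows); open circles did not pass, filled circles passed adjusted p under 0.05 in limma, black bars give each list's median and the dashed line the median of all genes, -0.18. Gab1 (-0.96) and Esrp1 (-1.13) are filled, and Fgfr1, Fgfr2 and Fgfr3 lie between -0.67 and -0.35.

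Besides Esrp1 and the receptors, Flrt2, Mbnl1 and Pik3r1 of the lists also had entries in the authors' deposited MAJIQ table. Flrt2, a membrane protein that binds FGF receptors, used its distal first exon with a PSI of 0.582 in Experimental and 0.210 in Control epidermis (posterior probability 0.996). Mbnl1, itself a splicing factor, used its distal last exon at 0.976 in Experimental and 0.763 in Control epidermis (0.984). Pik3r1, the regulatory subunit of PI3 kinase, had intron reads at 0.544 in Experimental and 0.241 in Control epidermis in chr13:101692631-101694375 (0.986). None of these 3 genes exceeded the smallest of the receptors' largest differences, 0.587.

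The genes whose levels ran most closely with the receptors over the 8 libraries were found by Pearson's r of log2 TPM among 7053 genes. For Fgfr2 they were Ciz1 (0.983), Mmp14 (0.982), Large2 (0.981) and Ctdspl (0.978). Ciz1 was at 6.52, 7.71, 7.90 and 6.59 TPM in Experimental libraries, against 13.1, 10.2, 8.74 and 6.05 TPM in Control libraries, the same order of Control libraries as in Fgfr2. For Fgfr3 they were Tnip2 (0.982), Gnptab (0.974), Rnf215 (0.969) and Hsdl1 (0.967). Tnip2 was at 5.92, 5.52, 8.21 and 8.01 TPM in Experimental libraries, against 10.5, 9.35, 10.5 and 7.21 TPM in Control libraries. None of the 8 passed the limma test between groups. The points are whole libraries that also share basal marker content, so r is given as a description, and Fgfr1 was too low to enter.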

How the data were processed

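Per the labels' protocols, RNA from back-skin epidermis was purified on RNeasy columns and sequenced from NEBNext Ultra libraries. STAR, Salmon 0.14.0, SAMtools 1.9 and DESeq, with GRCm38 and mm10, stand in the submitters' processing notes, and the series' design text names DESeq2 and MAJIQ. The sources used here do not say which tool and setting made which table. The deposited expression table holds log2 TPM per gene, read as such because the authors' mean count per kilobase was nearly proportional to 2 to the power of the value (0.869 to 1 of the highest bin) and less so with 1 subtracted (1.44 in the lowest bin). Values of 1 TPM or less are listed at 0, so precision at low levels is limited and depth is unknown.

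The deposited MAJIQ table gives, per the file headers, the PSI of each group as a fraction, their expected difference as a score, and a posterior probability, also a fraction. The authors' differential expression table gives, per the file headers, a mean normalized count signal, log2 fold changes and their standard errors, a test score and p-values. Columns of the expression table name a group but no replicate of the labels, so numbers 1 to 4 only name libraries in the order of the table, and p-values measure the spread between these libraries.

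Values were set to at least 1 TPM, transformed as log2(TPM + 1) and fitted with limma 3.58.1 in R 4.3.3 (group as sole term, trended eBayes, Benjamini-Hochberg adjusted two-sided p) for the 10682 genes with a mean of at least 1 TPM. The design had assumed log2(TPM + 1) values, and the deposited values were turned back to TPM first. This scale understates changes of low genes. Single values were compared by exact permutation, two-sided (scipy 1.17.1; the smallest p for 4 against 4 libraries is 0.0286). Sequences were read from GENCODE M21 transcripts (GRCm38); some exon sequences and genes are not reported here. pandas 2.3.3, numpy 2.4.6, Python 3.11.15 and matplotlib 3.10.9 were used.

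Named genes are the receptor family, Esrp1 and Esrp2; in each list the members that passed (at most 4) or else the 2 with the lowest p; the 4 genes most correlated with each receptor of at least 5 TPM; and, in the MAJIQ table, neighbours in rank and genes with mutually exclusive exons. Other genes were named for their known role in FGF signalling or as cell type markers, after their values were seen. The receptors and lists were chosen with earlier results of these data known. Alternatives were other pseudocounts (0.1 and 0.5 TPM), filters, scalings, thresholds and library weights, and leaving out libraries.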

Additional observations from a re-analysis of the deposited data

Results flagged for a closer look

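Among 24 named genes in each group of 4 libraries, 4 of 48 sets of values had a library far from the others, by a gap to its nearest neighbour past Dixon's 95% critical share of the whole range; chance marks about 1 in 20 such sets. Cldn3 reached 44.7 TPM in Experimental library 1, against 2.15 to 8.42 TPM in the other Experimental libraries (gap over range 0.853). Esrp1 reached 162 TPM in Control library 4, against 131 to 135 TPM in the other Control libraries (0.871). Sdc2 had 2.76 TPM in Control library 3, against 3.54 to 3.69 TPM in the others (0.839). Hsdl1, one of the genes that ran with Fgfr3, had 5.86 TPM in Control library 4, against 9.50 to 10.2 TPM in the others (0.839).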

How the results depend on the processing

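The PSI differences of the 3 receptors kept their direction when the difference of the group values was taken in place of MAJIQ's expected difference. Both are summaries of the same reads, so this was no separate check of direction. No paired analysis was possible because the columns of the expression table carry no replicate numbers that match the labels. The receptor levels depended on the libraries and their weights. With library weights Fgfr2 (-0.93) and Fgfr3 (-0.47) passed in limma, and without Control libraries 3 and 4 Fgfr2 did (-1.31). Over 19 alternatives Fgfr2 lay between -1.31 and -0.02 and Fgfr3 between -0.69 and -0.27 on the log2 scale. Without Control libraries 1 and 2 the sign turned for Fgfr1 (0.01), Mmp14 (0.04), Large2 (0.01) and Spred2 (0.06), and for Rnf215 it turned under median centring (0.03) and quantile normalization (0.05). Esrp1 passed in 18 of 19 alternatives and did not without Experimental libraries 2 and 4 (-0.99, adjusted p = 0.154).

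Genes past the threshold, 263 in all, numbered 4423 with library weights, 85 to 578 with 1 library left out, 544 without Control libraries 1 and 2, 2595 without Control libraries 3 and 4, and 15 without Experimental libraries 2 and 4. Calls within the FGF lists, 2 in all, numbered 5 under median centring, 41 with library weights, 1 to 3 with 1 library left out, 4 without Control libraries 1 and 2, 25 without Control libraries 3 and 4, and 0 without Experimental libraries 2 and 4. The MAJIQ entries past a difference of 0.15, 797 in all, came to 432 at 0.3. Apart from fewer libraries in the fit and the higher PSI threshold, the cause was not tested. Depth is unknown, and values near 1 TPM, as for Fgfr1 and Fgfrl1, are limited by the floor of the table.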
